A study of Homo sapiens with 6 samples.

Results

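The TAM family was read from RNA sequencing of NCI-H226 cells, as 5 rows of a table of 60676 genes chosen by name: the receptors AXL, TYRO3 and MERTK, and the ligands GAS6 and PROS1. TAM stands for TYRO3, AXL and MERTK, which are receptor tyrosine kinases of the cell surface. Their ligands, GAS6 and protein S (the product of PROS1), carry a vitamin K-dependent domain that binds phosphatidylserine on dying cells and on vesicles, and they bridge that lipid to a receptor. GAS6 binds every receptor of the family, whereas protein S acts through TYRO3 and MERTK. AXL is known in tumour cells for roles in survival, migration and drug resistance, and is widely used as a target gene of YAP and TEAD. MERTK is best known as the receptor by which macrophages clear dead cells.

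The cells had been given 500 nM HC278, which the series title calls a degrader of TEAD and the sample labels write as HC-31278, or the vehicle DMSO, for 24 h in both groups, with 3 libraries each. NCI-H226 is an established human line, labelled as mesothelioma of the pleura, so all 6 libraries come from 1 line grown in DMEM with serum. HC278 libraries are numbered 1, 2 and 6 and DMSO libraries 1, 2 and 3, and values are given in that order. The labels do not say whether they are separate cultures. The p-values therefore measure the variation of these libraries alone, which may be technical. The comparison asks how transcripts changed under the compound. Protein and receptor phosphorylation were not analysed here.

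Depth was even, at 30486316 to 33181814 counts per library. The libraries differed along exon length. The measure was the median log2 deviation of genes in the top quartile of exon length, less that in the bottom quartile. It was -0.63, -0.36 and 0.69 under HC278, against -0.14, -0.04 and 0.39 with DMSO. HC278 replicate 6 and DMSO replicate 3 were thus the highest of their groups. With HC278 replicate 6 left out, every HC278 library that remained lay below every DMSO library on this measure. Group and exon length can therefore not be told apart in fits without that library, nor in the replicate block. Mesothelial markers summed to between 2911 and 3873 TPM (transcripts relative to all transcripts, a level per length) under HC278 and between 3033 and 3675 TPM with DMSO, most of it KRT8 and KRT18. The markers moved apart: CALB2 (log2 1.35), UPK3B (1.05) and ITLN1 (1.36) were called higher and UPK1B (-1.79) lower in edgeR, of 9 tested, while mesothelin averaged 165 TPM under HC278 and 114 TPM with DMSO and did not pass. KRT5, also on that list, had 1 read in all. The 8 lung squamous and lung epithelial markers summed to between 0.398 and 0.669 TPM under HC278, against 0.0531 to 0.105 TPM with DMSO, with TP63 at 12 reads and SOX2 at 3 reads in all. NAPSA, with 45 reads, was the largest part of that sum and the marker that could be tested, and it was called higher (log2 2.03). NR1H2 on the opposite strand holds 22776% of its counts, so NAPSA is uncertain. Endothelial markers stayed at or under 0.706 TPM. The 4 fibroblast markers summed to between 14.8 and 41.9 TPM under HC278 and between 19.7 and 27.3 TPM with DMSO. Most of this was PDGFRB, which averaged 24.0 TPM under HC278 and 21.0 TPM with DMSO. DCN had 1 read in all and LUM 0 reads. The part of these markers in the results was not tested. Across all genes 1672 of 15510 tested were called changed (10.8%), which means a Benjamini-Hochberg adjusted p under 0.05 in edgeR's quasi-likelihood test. Of these, 837 were higher (5.4%) and 835 lower (5.38%).

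The start regions of AXL, TYRO3 and GAS6 are shown because the HC278 libraries of these 3 genes all lay below their DMSO libraries. Each run is RefSeq sequence of GRCh38.p14, from 250 bases before to 50 bases after an annotated start, written 5′ to 3′ on the gene's strand. Capitals mark the TEAD core GGAATG or its complement CATTCC, the AP-1 motif TGANTCA and the GC box GGGCGG or its complement CCGCCC, searched on both strands.
AXL, first start, chr19:41218973-41219272, plus strand: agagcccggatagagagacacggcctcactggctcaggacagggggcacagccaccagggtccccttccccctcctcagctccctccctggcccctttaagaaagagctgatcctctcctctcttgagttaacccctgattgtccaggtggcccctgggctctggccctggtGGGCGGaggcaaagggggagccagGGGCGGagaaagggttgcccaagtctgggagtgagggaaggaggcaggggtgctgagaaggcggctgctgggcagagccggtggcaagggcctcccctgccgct
AXL, second start, chr19:41226505-41226804, plus strand: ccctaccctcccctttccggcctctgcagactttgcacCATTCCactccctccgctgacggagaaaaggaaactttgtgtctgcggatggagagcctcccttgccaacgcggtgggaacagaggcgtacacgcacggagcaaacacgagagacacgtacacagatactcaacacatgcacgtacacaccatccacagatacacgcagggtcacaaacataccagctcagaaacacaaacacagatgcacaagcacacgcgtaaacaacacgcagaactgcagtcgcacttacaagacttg
TYRO3, first start, chr15:41558962-41559261, plus strand: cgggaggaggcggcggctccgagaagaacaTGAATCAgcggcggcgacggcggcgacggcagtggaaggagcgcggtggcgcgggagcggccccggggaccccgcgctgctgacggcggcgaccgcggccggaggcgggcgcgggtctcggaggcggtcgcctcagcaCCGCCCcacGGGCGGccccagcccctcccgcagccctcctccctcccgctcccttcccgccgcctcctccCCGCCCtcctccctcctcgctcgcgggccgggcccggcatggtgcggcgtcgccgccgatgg
GAS6, chr13:113864027-113864326, minus strand: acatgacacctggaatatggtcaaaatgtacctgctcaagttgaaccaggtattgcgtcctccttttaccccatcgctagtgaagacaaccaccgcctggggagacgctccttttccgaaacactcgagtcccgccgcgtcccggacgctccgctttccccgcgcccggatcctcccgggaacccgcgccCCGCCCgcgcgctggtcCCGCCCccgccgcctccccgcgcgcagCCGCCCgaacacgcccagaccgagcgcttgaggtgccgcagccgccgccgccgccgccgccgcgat

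All 5 members matched the RefSeq table, with 7 windows between them. The TEAD core was found in 1 of the 7, at the second AXL start, where CATTCC begins 212 bases before the start. The window at the first AXL start, which lies at the start of the gene in the deposited table, holds a pair of GC boxes, 78 and 54 bases before it. The first TYRO3 window holds 1 AP-1 motif, 220 bases before the start, and 3 GC boxes, and the GAS6 window holds 3 GC boxes. That TYRO3 window lies within the gene of the deposited table, downstream of its start. The second TYRO3 window is not shown and holds none of the motifs. The MERTK window has 5 GC boxes and the PROS1 window 2. Matches of different motifs did not overlap. Over all 35116 windows in the RefSeq table, 14.0% hold the TEAD core, 7.71% the AP-1 motif and 45.0% a GC box. A match says that the letters are present, and binding was not measured.

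AXL was the member whose transcripts changed by the test, and it fell. Under HC278 its libraries had 296, 266 and 269 CPM (counts over the scaled library size), against 416, 410 and 434 CPM with DMSO. Every HC278 library was below every DMSO library, and the gap between the groups was wider than the range within either. The means were 277 ± 16.8 CPM under HC278 and 420 ± 12.5 CPM with DMSO (SD, n = 3 each), which is -0.60 on the log2 scale (SE 0.11) and passed in edgeR with an adjusted p of 0.0240. HC278 libraries thus held 65.9% of the DMSO level. In bulk RNA, fewer cells that express a gene and less of its RNA in each cell cannot be told apart. AXL (ENSG00000167601) spans chromosome 19, bases 41219223 to 41261766 of hg38, plus strand. Its reads came to 8450, 8390 and 9194 under HC278, against 13278, 13581 and 14690 with DMSO, so counting error was small beside the difference.

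The fall of AXL was among the smaller of those called, with 707 of the 835 lower genes falling further. It kept its direction in 17 other settings, with log2 values from -0.66 to -0.53. It passed in 11 of them, including the replicate block, whose group difference rests on the libraries numbered 1 and 2. The 11 also included the fit without HC278 replicate 6 (log2 -0.58, adjusted p = 0.00547) and the fit without that library and DMSO replicate 3 (log2 -0.56, adjusted p = 0.00511). AXL passed too with the exon length trend taken out (log2 -0.57, adjusted p = 0.0141). It did not pass without HC278 replicate 1 (adjusted p = 0.0509) or 2 (0.121), or without DMSO replicate 1 (0.124), 2 (0.131) or 3 (0.127), nor with no filter on low counts (0.0583), all in edgeR. The share of all tested genes that was called moved with these settings. It was 40.6% without HC278 replicate 6 and 40.4% without that library and DMSO replicate 3, but 5.15% without HC278 replicate 1, 1.59% without HC278 replicate 2, and 1.03%, 0% and 1.54% without DMSO replicates 1, 2 and 3. With all 6 libraries it was 18.2% in DESeq2, 10.9% in limma-voom, 17.8% and 15.8% with the exon length and the gene span trend taken out, and 3.79% with no filter. Library size alone gave 8.76%, a filter of 10 counts in 3 libraries 10.7%, and other scale factors 10.8%.

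**Figure D1:**
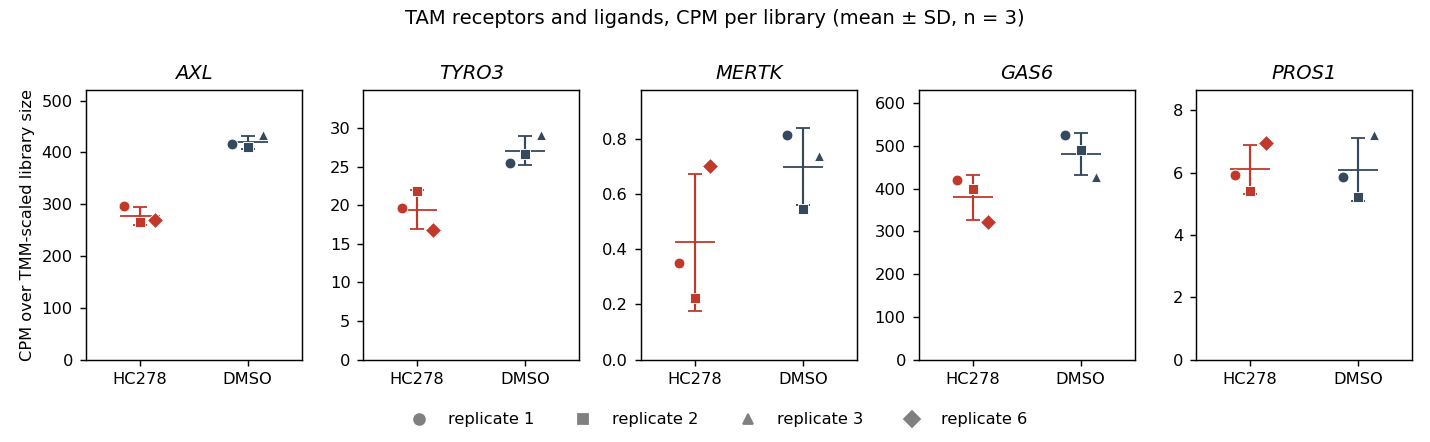
CPM over the TMM-scaled library size for the 5 members in each library, HC278 on the left and DMSO on the right of each panel, with the mean and SD of 3 libraries. AXL, TYRO3 and GAS6 show no overlap between groups, whereas MERTK and PROS1 do.

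TYRO3, a receptor known for its high expression in brain, was at 19.7, 21.9 and 16.8 CPM under HC278, against 25.5, 26.6 and 29.2 CPM with DMSO. The groups did not overlap, but the gap between HC278 replicate 2 and DMSO replicate 1 was smaller than the range of the HC278 libraries. Its log2 fold change was -0.48 (SE 0.14) and did not pass (edgeR, adjusted p = 0.0806). TYRO3 passed as lower without HC278 replicate 6 (log2 -0.39, adjusted p = 0.0304), where 20.7% of tested genes were called lower, and in DESeq2 (log2 -0.48, adjusted p = 0.0269), which called 9.37% of tested genes lower. With the exon length trend taken out it stood at -0.41 (adjusted p = 0.270). TYRO3 (ENSG00000092445) spans chromosome 15, bases 41557675 to 41583589, plus strand. Its pseudogene TYRO3P had 6 reads over all 6 libraries, so few TYRO3 reads were assigned to that copy.

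MERTK was close to the limit of what this depth measures. It had 10, 7 and 24 reads under HC278, against 26, 18 and 25 reads with DMSO, or 0.351, 0.222 and 0.701 CPM under HC278, against 0.814, 0.544 and 0.739 CPM with DMSO. HC278 replicates 1 and 2 were below all DMSO libraries and HC278 replicate 6 was among them. With all 6 libraries the log2 fold change was -0.70 (SE 0.45) and did not pass (adjusted p = 0.383, edgeR). HC278 replicate 6 decided the value: without it MERTK was at -1.29 (adjusted p = 0.0330), and without HC278 replicate 2 it was at -0.40 (adjusted p = 0.685). It was at -1.24 (adjusted p = 0.0563) when DMSO replicate 3 was left out as well. The exact Poisson interval (95%) of a single library, which covers counting error only, ran from 2.81 to 14.4 reads for HC278 replicate 2 and from 15.4 to 35.7 reads for HC278 replicate 6. MERTK (ENSG00000153208) spans chromosome 2, bases 111898607 to 112029561, plus strand, the longest span of the 5 genes at 130955 bases.

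Markers of macrophages, in which MERTK is best known, were read beside it. Of 8 macrophage and other immune markers 3 could be tested, and CD68, a lysosomal protein (log2 0.91, adjusted p = 0.0100), and CD14, a co-receptor for lipopolysaccharide (log2 1.33, adjusted p = 0.0322), rose in edgeR. The list summed to between 91.0 and 116 TPM under HC278, against 53.4 to 61.8 TPM with DMSO, with CD68 averaging 99.1 TPM under HC278 and 55.7 TPM with DMSO. CD163, also tested, was at 0.23 and did not pass (edgeR, adjusted p = 0.803). CD163L1 overlaps CD163 on its own strand with 1280% of its counts. The pan-leukocyte marker PTPRC had 24 reads in all libraries together, CSF1R 36, MRC1 38 and CD3E 0. Their part in the values of MERTK was not tested.

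GAS6, the ligand with the highest affinity for AXL, was abundant in the same cells. Its libraries were at 421, 398 and 321 CPM under HC278, against 526, 490 and 428 CPM with DMSO. The groups did not overlap, yet HC278 replicate 1 and DMSO replicate 3 nearly met. Within each group the library highest on the exon length measure was the lowest for GAS6. The log2 fold change of -0.34 (SE 0.16) did not pass (edgeR, adjusted p = 0.232). Without both HC278 replicate 6 and DMSO replicate 3 it was at -0.31 and passed (adjusted p = 0.0275), in a fit where 20.9% of tested genes were called lower. Without HC278 replicate 6 alone it was at -0.24 and did not (adjusted p = 0.127). GAS6 (ENSG00000183087) spans chromosome 13, bases 113820549 to 113864076, minus strand.

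A divergent and an antisense transcript lie beside GAS6. GAS6-DT, which starts 36 bases away on the other strand, averaged 10.7 ± 1.87 CPM under HC278 and 13.5 ± 1.28 CPM with DMSO (SD, n = 3 each; log2 -0.34, edgeR, adjusted p = 0.264), and passed as lower without HC278 replicate 6 (log2 -0.48, adjusted p = 0.0284). GAS6-AS1, on the opposite strand, overlaps the 3′ part of GAS6 and runs past its 3′ end. It had 5.85, 6.59 and 14.8 CPM under HC278, against 4.19, 4.98 and 5.85 CPM with DMSO (log2 0.86, adjusted p = 0.222). Its raised level in HC278 replicate 6 set the size of that difference, which was 0.31 without it. Reads of GAS6-AS1 came to 1.66% of those of GAS6. The strand setting of the counting is not given in the sources used here, so the values of GAS6-AS1 are uncertain while those of GAS6 could hardly be moved by it.

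PROS1, which encodes protein S, also a cofactor of the anticoagulant protein C, had the same mean in both groups. Its libraries were at 5.92, 5.42 and 6.96 CPM under HC278, against 5.85, 5.23 and 7.21 CPM with DMSO. In each group 1 library was higher than the others, HC278 replicate 6 and DMSO replicate 3, and the groups overlapped fully. The log2 fold change was 0.00 (SE 0.18, edgeR, adjusted p = 0.998), and over 17 other settings it lay between -0.11 and 0.13 without passing in any. PROS1 (ENSG00000184500) spans chromosome 3, bases 93873051 to 93980003, minus strand. Its pseudogene copy PROS2P had 0 reads, so none were assigned to that copy. How reads that match both were treated is not given in the sources used here.

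Taken as 5 genes, 1 passed, as lower, and 4 did not pass, against 5.38% of tested genes lower and 5.4% higher. All 5 members were tested, and 3 of them had every HC278 library below every DMSO library, as had 17.5% of all tested genes.

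Levels between genes were compared as the authors' TPM, which divides by the length of the gene model. The TYRO3 model is 199% as long as that of AXL, so counts alone would overstate TYRO3. GAS6 came first, at 259, 277 and 315 TPM under HC278, against 393, 375 and 366 TPM with DMSO. AXL followed at 145, 146 and 209 TPM under HC278, against 246, 249 and 294 TPM with DMSO, and the 2 genes did not overlap within either group. By mean TPM over all 60676 genes GAS6 ranked 449 under HC278 and 351 with DMSO, and AXL ranked 801 and 507.

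TYRO3 had 4.82, 6.05 and 6.57 TPM under HC278, against 7.57, 8.11 and 9.93 TPM with DMSO. PROS1 was below it in each library, at 2.82, 2.91 and 5.27 TPM under HC278, against 3.37, 3.09 and 4.76 TPM with DMSO, although their ranges overlapped under HC278. MERTK came last, at 0.192, 0.137 and 0.612 TPM under HC278, against 0.540, 0.370 and 0.562 TPM with DMSO. TPM of AXL was higher in HC278 replicate 6 than in the other HC278 libraries, which its CPM was not.

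By TPM, 1 receptor and 1 ligand made up nearly all of the family in both groups. AXL held 96.6%, 95.9% and 96.7% of the TPM summed over the receptors under HC278, against 96.8%, 96.7% and 96.6% with DMSO, so the groups overlapped. GAS6 held at least 98.4% of ligand TPM under HC278 and at least 98.7% with DMSO. The summed receptor level was 150, 152.5 and 216 TPM under HC278, against 254, 257 and 305 TPM with DMSO, without overlap. These sums follow AXL and GAS6 and carry no test of their own.

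**Figure D2:**
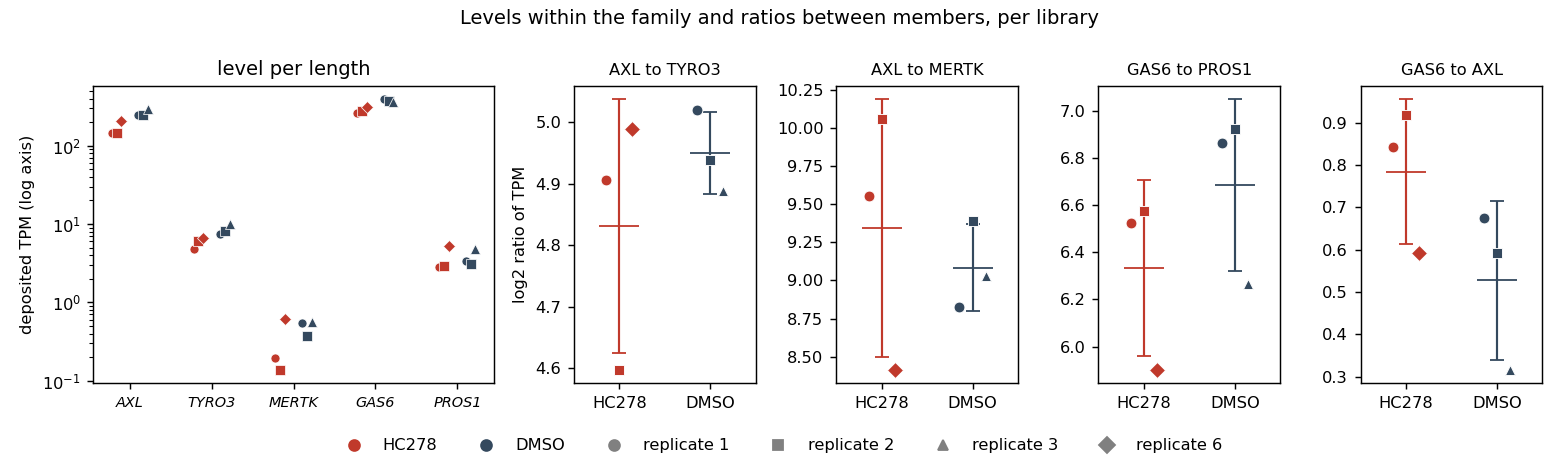
Left, the authors' TPM of the 5 members in each library on a log axis, HC278 left of DMSO. Right, 4 log2 ratios of TPM between members with mean and SD (n = 3), in which HC278 and DMSO libraries overlap for all 4.

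Ratios between members within a library are free of library scaling, and 4 were compared by exact two-sided permutation tests, whose smallest possible p with 3 against 3 is 0.1, so that none could pass 0.05. The log2 ratio of AXL to TYRO3 was 4.91, 4.60 and 4.99 under HC278, against 5.02, 4.94 and 4.89 with DMSO, a difference of -0.12 (p = 0.5, exact). AXL to MERTK averaged 9.34 ± 0.84 under HC278 and 9.08 ± 0.29 with DMSO (SD, n = 3 each, exact p = 0.6). The ratio of GAS6 to PROS1 averaged 6.33 ± 0.37 under HC278 and 6.68 ± 0.36 with DMSO (SD, n = 3 each, exact p = 0.3). GAS6 to AXL was 0.84, 0.92 and 0.59 under HC278, against 0.68, 0.59 and 0.32 with DMSO, a difference of 0.26 (exact p = 0.2). After adjustment over the 4 ratios each p was 0.6. This test can therefore not say whether AXL changed more or less than TYRO3, MERTK or GAS6.

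**Figure D3:**
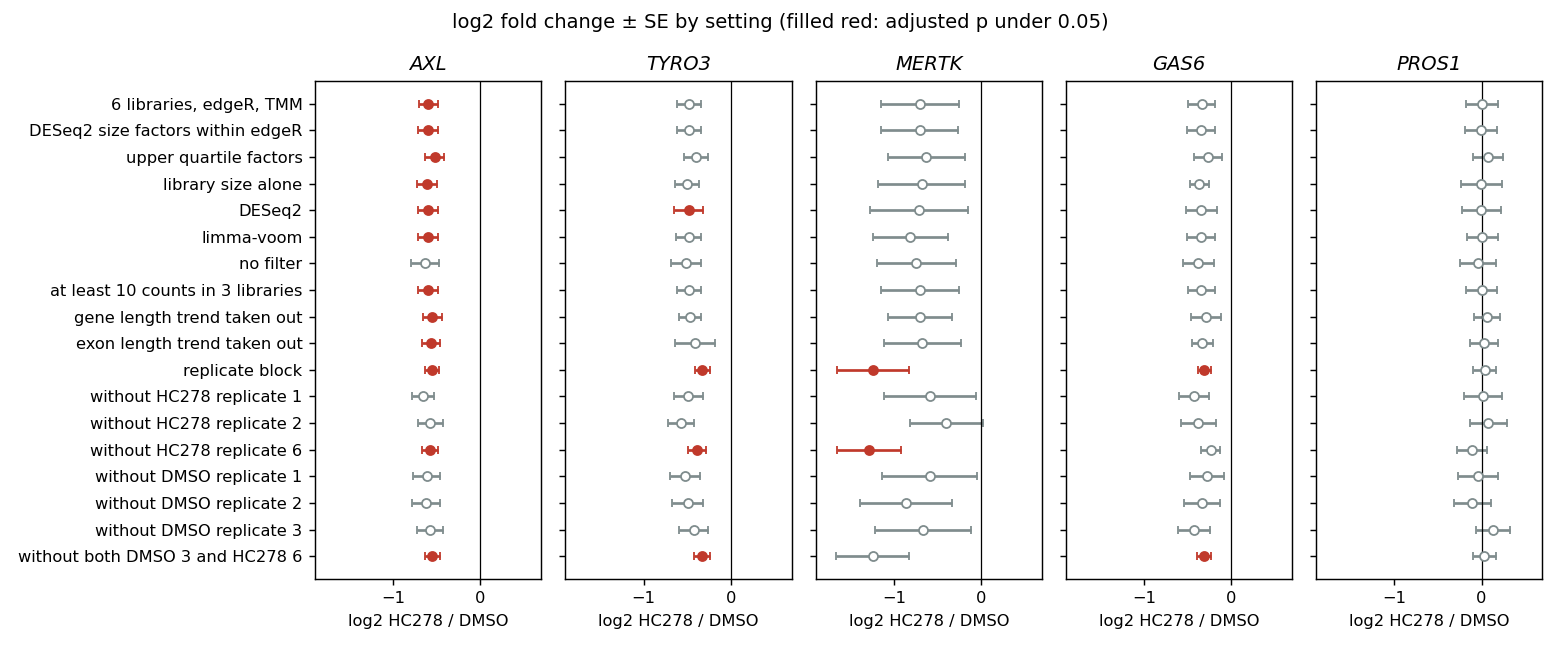
log2 fold change of HC278 over DMSO with its SE for each member, in the fit of all 6 libraries and in 17 other settings down the page. Filled red points have an adjusted p under 0.05, and AXL, TYRO3, MERTK and GAS6 lie left of 0 throughout while PROS1 lies between -0.11 and 0.13.

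The profiles of AXL, TYRO3 and GAS6 over the 6 libraries lay nearer to each other than to those of MERTK and PROS1. After each gene's mean log2 CPM was taken off, the root mean square distance was 0.14 between AXL and TYRO3, 0.17 between TYRO3 and GAS6 and 0.19 between AXL and GAS6, on the log2 scale. MERTK, with 7 to 26 reads per library, was at 0.45 to 0.59 from the other 4 and PROS1 at 0.34 to 0.51. Among 9079 other genes that averaged 10 CPM or more, those nearest to AXL were RBM14 (0.034), SLC44A2 (0.051), EIF1AX (0.055), NAT8L (0.058) and NUP43 (0.059). All 5 had passed as lower, with log2 fold changes from -0.63 to -0.54. Since they were chosen for likeness to AXL over these same libraries, their fall is no separate result. NUP43 is overlapped on the opposite strand by PCMT1, with 295% of its counts. Nearest to TYRO3 was SMN1 (0.035), which has a near-identical copy in SMN2. The nearest to GAS6 was the zinc finger gene MAZ (0.035), to PROS1 RAD54L2 (0.070), which TEX264 overlaps with 412% of its counts, and to MERTK NLRP1 (0.26). AXL, TYRO3 and GAS6 each lay closer to the nearest gene given here than to each other. Such likeness over 6 libraries of 2 groups describes these libraries only.

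Tested genes that flank the members were read as well, chosen after the members' values had been seen. CYP2S1, a cytochrome P450 gene 11684 bases upstream of AXL, had 4.84, 3.58 and 5.85 CPM under HC278, against 2.25, 2.14 and 2.04 CPM with DMSO, and rose (log2 1.15, edgeR, adjusted p = 0.0269). HNRNPUL1, 730 bases downstream of AXL, was at 170, 173 and 198 CPM under HC278, against 217, 218 and 244 CPM with DMSO (log2 -0.33, adjusted p = 0.145), and passed as lower without HC278 replicate 6 (log2 -0.40, adjusted p = 0.0173). TGFB1 on the opposite strand overlaps HNRNPUL1 with 47.2% of its counts. TMEM255B, 3554 bases from the 3′ end of GAS6, had 41.6, 35.5 and 21.5 CPM under HC278, against 15.1, 13.7 and 11.7 CPM with DMSO, and rose (log2 1.28, edgeR, adjusted p = 0.0314). GAS6-AS1 overlaps TMEM255B on its own strand with 31.5% of its counts. Both neighbours that were called higher thus lie beside a member whose HC278 libraries were below its DMSO libraries.

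The wider pathway was described by 10 lists with 124 genes, of which 107 could be tested. In edgeR 9 rose, 7 fell and 91 did not pass, so 15.0% were called, against 10.8% of all tested genes. Their median log2 fold change was 0.04, against 0.05 over all genes. Without HC278 replicate 6 these counts were 25 higher and 34 lower, where 40.6% of tested genes were called. Without DMSO replicate 2 no list gene passed. Since HC278 replicate 6 moved many of these values, those without it are given where they differ in call or by over 1.5 times. In that fit group and exon length cannot be told apart. Some genes named below passed without HC278 replicate 6 but not with all 6 libraries. Of these, LGALS3, ATP8A1, ATP8B1, WWTR1, JUND and ABCA1 also passed with the exon length trend taken out. VKORC1, TUB, FGFR1, SOCS1, AGER, PROCR, THBD, TEAD1, YAP1, TEAD2, JUN and PPARG did not.

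Genes that ready the ligands and release the receptors changed in part. Of 4 genes of vitamin K-dependent carboxylation and ligand processing, VKORC1L1, which recycles vitamin K, fell to 42.6 ± 1.38 CPM under HC278, against 77.6 ± 4.75 CPM with DMSO (log2 -0.87, SE 0.10, edgeR, adjusted p = 0.00771). The carboxylase gene GGCX, FURIN and VKORC1 had log2 values of -0.13, -0.20 and 0.29 and did not pass. MAT2A on the opposite strand overlaps GGCX with 474% of its counts, so GGCX is uncertain. VKORC1, the main vitamin K epoxide reductase, passed as higher without HC278 replicate 6 (log2 0.59, adjusted p = 0.0424). Of 8 genes of receptor shedding 2 rose and 1 fell, with a median of 0.27. RHBDF1 (log2 0.63, adjusted p = 0.0166) and RHBDF2 (log2 0.65, adjusted p = 0.0249), which encode the iRhom partners of the sheddase ADAM17, rose in edgeR. TIMP3, an inhibitor of ADAM17, had 64.4, 64.6 and 63.4 CPM under HC278, against 108, 104 and 106 CPM with DMSO, and fell (log2 -0.72, SE 0.09, adjusted p = 0.00910). ADAM17 itself was at 0.44 and did not pass (adjusted p = 0.233), although it did with the exon length trend taken out (log2 0.44, adjusted p = 0.0138). HC278 replicate 6 set much of its value, which was 0.20 without that library (adjusted p = 0.166). The gene IAH1 overlaps ADAM17 with 40.5% of its counts. Also on that list, TIMP1 and TIMP2 were at 0.93 and 0.11, and ADAM10 and ADAM9 at -0.24 each. None of these passed with all 6 libraries.

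The other reported TAM ligands did not pass in edgeR. LGALS3 (galectin-3) was at 141 ± 50.5 CPM under HC278 and 80.1 ± 10.0 CPM with DMSO (log2 0.82, adjusted p = 0.131), and TUB at -0.62 (adjusted p = 0.210). Of these 2 tested genes 1 had an unadjusted p under 0.05, and none passed in DESeq2 or limma-voom. Without HC278 replicate 6 LGALS3 passed as higher (log2 1.07, adjusted p = 0.00269) and TUB as lower (log2 -0.94, adjusted p = 0.0105). TULP1 had 1 read in all.

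Among 12 tested receptor tyrosine kinases that relate to or pair with AXL, 2 rose and 1 fell, with a median of -0.04. ERBB3, the receptor for neuregulins, fell to 7.48 ± 1.14 CPM under HC278, against 22.5 ± 1.25 CPM with DMSO (log2 -1.59, SE 0.15, edgeR, adjusted p = 0.00492). MST1R, the receptor RON, had 5.64, 4.98 and 8.62 CPM under HC278, against 1.47, 1.78 and 1.48 CPM with DMSO, and rose (log2 2.02, adjusted p = 0.00899). DDR1, a receptor for collagen, rose by 0.73 (adjusted p = 0.0235). FGFR1 was at -0.42 and did not pass (adjusted p = 0.0873), but did without HC278 replicate 6 (log2 -0.51, adjusted p = 0.00685).

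Of 22 signalling adaptors and effectors 2 rose, 1 fell and 19 did not pass, with a median of -0.03. The Src family kinase gene FYN fell to 11.4 ± 0.509 CPM under HC278, against 24.6 ± 1.36 CPM with DMSO (SD, n = 3 each; log2 -1.11, SE 0.11, edgeR, adjusted p = 0.00542). PIK3R2, a regulatory subunit of PI3-kinase, rose (log2 0.66, adjusted p = 0.0171). SOCS3, a feedback inhibitor of cytokine signals, passed at the threshold (log2 0.50, adjusted p = 0.0496). It passed in 7 of 17 other settings and lost its call in limma-voom, with no filter and with the gene span trend taken out (log2 0.32, adjusted p = 0.127), among others. SOCS1, under 1 CPM in every library, was at 0.94 and did not pass (adjusted p = 0.0698), with RMI2 on the opposite strand at 550% of its counts. SOCS1 passed without HC278 replicate 6 (log2 0.96, adjusted p = 0.0421).

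**Figure D4:**
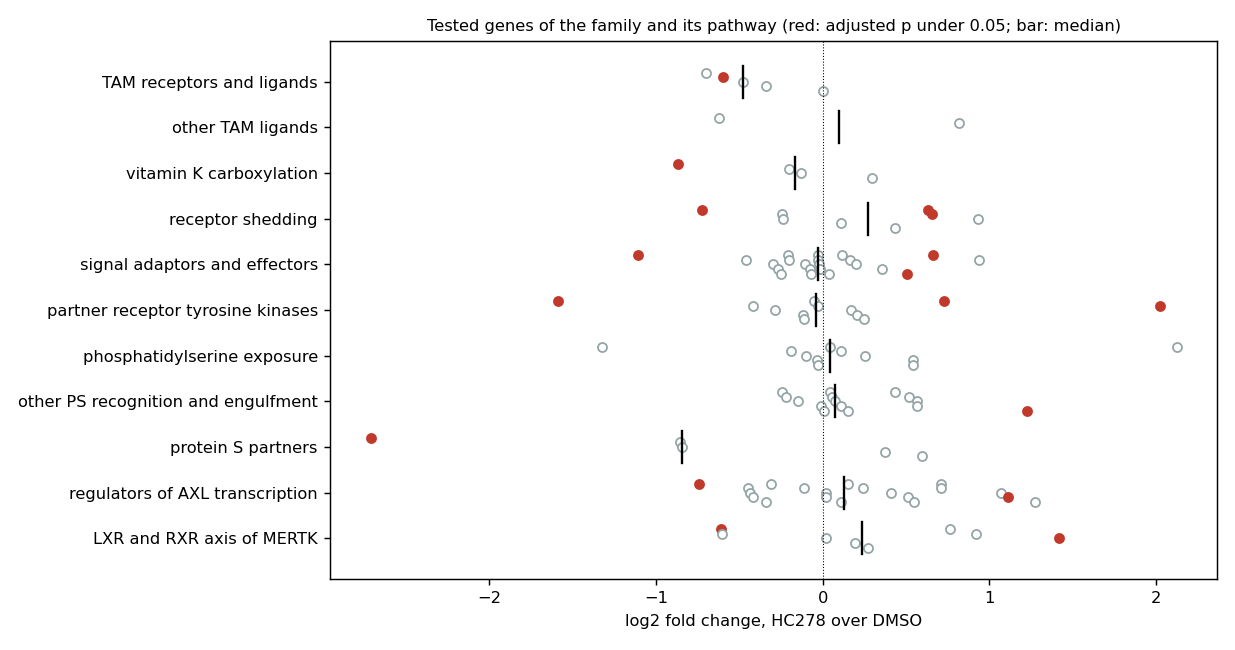
log2 fold change of HC278 over DMSO for every tested gene of the TAM family (top) and of 10 lists around it, with red points for an adjusted p under 0.05 and a black bar for each median. Called genes lie on both sides of 0 in 5 of the 10 lists, and the medians of all lists but protein S partners lie between -0.17 and 0.27.

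Genes of phosphatidylserine exposure and recognition mostly did not pass. None of 11 tested scramblase and flippase genes passed in edgeR or limma-voom. Of these, 2 had an unadjusted p under 0.05 and both passed in DESeq2, the flippase genes ATP8B1 (log2 -1.33, edgeR adjusted p = 0.0690) and ATP8A1 (log2 2.13, edgeR adjusted p = 0.0852). Without HC278 replicate 6, where ATP8A1 was at 4.09 CPM against 1.12 and 1.27 CPM in the other HC278 libraries, ATP8A1 was at 1.26 and passed (adjusted p = 0.0348), as did ATP8B1 (log2 -1.80, adjusted p = 0.00198). Of 15 tested genes of other phosphatidylserine receptors and engulfment, 1 passed. ADGRB1, the receptor BAI1, rose to 2.28 ± 0.434 CPM under HC278, against 0.974 ± 0.204 CPM with DMSO (log2 1.22, SE 0.26, edgeR, adjusted p = 0.0344). LRP1, AGER and CD47 were at 0.57, 0.52 and 0.15 and did not pass. Without HC278 replicate 6 LRP1 was at 0.07 (adjusted p = 0.740), and AGER passed as higher (log2 0.70, adjusted p = 0.0337). STAT6 on the opposite strand overlaps LRP1 with 59.0% of its counts. The receptors TIMD4, HAVCR1 and CD300LF had 0 reads.

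Of 5 tested partners of protein S in anticoagulation and complement, C4BPB fell and none rose. C4BPB encodes the chain of C4b-binding protein that binds protein S, and had 1.05, 1.08 and 1.17 CPM under HC278, against 8.23, 7.70 and 5.76 CPM with DMSO (log2 -2.71, SE 0.20, edgeR, adjusted p = 0.00393). The gene of the other chain, C4BPA, had 0 reads. PROCR, the receptor of protein C, averaged 64.7 ± 7.38 CPM under HC278 and 42.8 ± 5.62 CPM with DMSO (SD, n = 3 each). At log2 0.60 it missed the threshold (edgeR, adjusted p = 0.0570), and passed without HC278 replicate 6 (log2 0.68, adjusted p = 0.00843). The opposite-strand gene MMP24OS, with 90.7% of its counts, overlaps PROCR. The genes of thrombomodulin and tissue factor pathway inhibitor, THBD and TFPI, were at -0.85 each, near or under 1 CPM, and did not pass. THBD passed as lower without HC278 replicate 6 (log2 -1.23, adjusted p = 0.0287).

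Transcription factors known to act on the AXL gene showed no common direction, with 1 of 20 higher, 1 lower and a median of 0.13. TEAD4 had 38.0, 31.7 and 24.8 CPM under HC278, against 56.9, 53.1 and 48.0 CPM with DMSO, and passed at the threshold (log2 -0.74, edgeR, adjusted p = 0.04999). With the gene span trend taken out it did not pass (log2 -0.65, adjusted p = 0.156), and with the exon length trend taken out it did (log2 -0.85, adjusted p = 0.00230). TEAD1 showed 62.1, 77.6 and 213 CPM under HC278, against 123, 133 and 180 CPM with DMSO, so that HC278 replicate 6 was the highest of all. TEAD1 was at -0.31 with all libraries (adjusted p = 0.746), but at -1.06 without HC278 replicate 6 (adjusted p = 0.00865) and at -0.88 when DMSO replicate 3 was left out as well (adjusted p = 0.00347), and passed as lower in both. With the exon length trend taken out TEAD1 was at -0.39 and did not pass (edgeR, adjusted p = 0.442). In AXL, by contrast with TEAD1, HC278 replicate 6 lay beside the other HC278 libraries. YAP1, the coactivator of the TEAD factors, was at 64.4, 83.4 and 160 CPM under HC278, against 99.7, 102 and 132 CPM with DMSO. WWTR1, which encodes the related coactivator TAZ, lay between 14.2 and 23.9 CPM under HC278, against 10.3 to 12.2 CPM with DMSO. HC278 replicate 6 was the highest library for both, and neither passed (log2 -0.11 and 0.71, edgeR adjusted p = 0.880 and 0.0969). When that library was left out, YAP1 was called lower (log2 -0.59, adjusted p = 0.0337) and WWTR1 higher (log2 0.45, adjusted p = 0.0298). With the exon length trend taken out YAP1 was at -0.12 and did not pass (edgeR, adjusted p = 0.819). WWTR1 also passed in DESeq2 (adjusted p = 0.0326) and with the exon length trend taken out (adjusted p = 0.00823). TEAD2 was at 4.14, 4.25 and 3.71 CPM under HC278, against 3.19, 2.48 and 2.81 CPM with DMSO (log2 0.51). TEAD3 was at 39.3, 41.4 and 38.7 CPM under HC278, against 35.3, 32.2 and 33.6 CPM with DMSO (log2 0.24). Neither overlapped between groups, and neither passed, although TEAD2 did without HC278 replicate 6 (log2 0.57, adjusted p = 0.0342). JUNB, an AP-1 subunit, rose (log2 1.11, adjusted p = 0.00772), with HOOK2 on the opposite strand at 48.2% of its counts, while JUND (log2 1.07, adjusted p = 0.0524) and JUN (log2 -0.44, adjusted p = 0.0660) did not pass. Both passed without HC278 replicate 6, JUND at 1.24 (adjusted p = 0.00731) and JUN at -0.51 (adjusted p = 0.00647).

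Liver X receptors, which induce MERTK in mouse macrophages, were read for comparison with MERTK. Of 8 tested genes of that axis 1 rose and 1 fell, with a median of 0.23. NR1H3, which encodes LXR-alpha, had 15.0, 11.3 and 8.56 CPM under HC278, against 4.57, 4.53 and 3.93 CPM with DMSO, and rose (log2 1.42, SE 0.23, edgeR, adjusted p = 0.0166). The opposite-strand gene ACP2, with 128% of its counts, overlaps NR1H3, so the size is uncertain. PPARD, a nuclear receptor for fatty acids, fell (log2 -0.61, adjusted p = 0.0225), and PPARG, of the same family, was also at -0.61 but did not pass (adjusted p = 0.121). PPARG passed without HC278 replicate 6 (log2 -0.42, adjusted p = 0.0287). The cholesterol exporter ABCA1, a target of these receptors, was at 0.92 and did not pass (adjusted p = 0.0976), though it did with the exon length trend taken out (log2 0.90, adjusted p = 0.00613). ABCA1 also passed without HC278 replicate 6, at a smaller 0.55 (adjusted p = 0.0239).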

How the data were processed

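Transcripts were measured in 3 HC278 and 3 DMSO libraries of NCI-H226 cells, grouped by the sample labels. Per the labels' protocols, libraries were made from Trizol RNA with a stranded mRNA kit. The deposited table holds raw counts of reads per gene, and also RPKM and TPM made by the authors. Its column headed CPM sums to between 871859 and 1091291 per library and was treated as a deposited signal, not as CPM. The submitters' processing notes name build hg38. Not given in the sources used here are the aligner, the counter, its strand setting and the annotation. Total counts ran from 30486316 to 33181814, at which 3 counts are 0.0904 to 0.0984 CPM (counting error only).

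Counts were tested with edgeR 4.0.16 (R 4.3.3): glmQLFit and glmQLFTest, TMM factors, filterByExpr with a minimum count of 10. Calls are Benjamini-Hochberg adjusted p under 0.05 over 15510 genes, and SE is the fold change over the square root of F. CPM printed in the text was computed over TMM-scaled library sizes, and TPM is the authors'. Alternatives were DESeq2 1.42.0 size factors and test, limma-voom (3.58.1), upper quartile factors, library size alone, other filters, gene span and exon length trends (loess, span 0.5) taken out, a replicate block, and libraries left out. The exon length setting was added after the data were seen, with relative exon lengths recovered from counts over RPKM. No pair of libraries agreed within sampling noise (chi-square per degree of freedom from 4.02 to 313). The test was run before use on simulated data with known fold changes, all larger than that of AXL. The simulation held no exon length trend, so it does not cover that feature of these libraries. Members and lists were chosen with earlier results of these data known. The rule for named genes gives all members, overlapping genes and copies, up to 4 genes per list by smallest adjusted p, and the 5 most alike profiles among genes of at least 10 CPM. TYRO3P and PROS2P were the copies checked.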

Additional observations from a re-analysis of the deposited data

How the results depend on the processing

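AXL, TYRO3, MERTK and GAS6 kept negative log2 fold changes in all 17 other settings, and PROS1 was negative in 7 and never passed. AXL lost its call with no filter (log2 -0.64, adjusted p = 0.0583), and with single libraries left out lay between -0.66 and -0.57, passing only without HC278 replicate 6. TYRO3 passed in DESeq2 (log2 -0.48, adjusted p = 0.0269) and without both HC278 replicate 6 and DMSO replicate 3 (log2 -0.33, adjusted p = 0.0320), and ranged from -0.57 to -0.39 with single libraries left out. MERTK ranged from -1.29 to -0.40 and GAS6 from -0.43 to -0.24 in those fits, and GAS6 passed without both libraries (log2 -0.31). Genes called higher and lower numbered 1364 and 1454 in DESeq2, 1329 and 1429 with the exon length trend taken out, 1165 and 1282 with the gene span trend taken out, 553 and 662 with no filter, and 3048 and 3274 without both libraries. With single libraries left out they ranged from 0 to 3133 and from 0 to 3280. The 0 came without DMSO replicate 2, where edgeR, the tool used there, gave 2864 genes an unadjusted p under 0.05. Over the pathway lists these counts were 15 and 12 in DESeq2, 17 higher with the exon length trend, 24 and 34 without both libraries, and 0 to 25 and 0 to 34 with single libraries left out. The cause was not tested. The 4 ratios and the AXL share moved by less than the spread between libraries in every setting run, and CPM in place of TPM leaves a ratio's difference as it is by construction.

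HC278 and DMSO share the numbers 1 and 2 only, and nothing in the labels ties same-numbered libraries (correlation of their deviations from the group mean 0.52 and 0.18 over 15510 genes). With the number as a replicate block, HC278 replicate 6 and DMSO replicate 3 each form a block of their own and add nothing to the group difference. That fit rests on the libraries numbered 1 and 2, and its fold changes lie near those without both libraries. In it AXL was at -0.56, TYRO3 at -0.33 (adjusted p = 0.00721), MERTK at -1.24 (adjusted p = 0.0259) and GAS6 at -0.31 (adjusted p = 0.00519). Called there were 3954 genes higher and 4218 lower (52.7% of those tested), and 31 and 43 on the lists. Depth limits MERTK most, with 7 to 26 reads per library.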
